A study of Mus musculus with 12 samples.

Results

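The 655 sites described here are CCCGGG sites on mouse chromosome 10, between mm9 positions 50000000 and 95000000, the interval chosen because it holds both Tet1 and Tdg. They are all the sites of the interval that had at least 20 reads in each of 11 colonic adenomas, out of 3679 sites listed there and 173449 listed in the deposited tables. Methylation and read depth at these sites were compared between 4 genotypes along the interval and against the rest of chromosome 10.

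All mice were C57BL/6J by label and carried the Min allele of Apc, a truncating allele of the gene that restrains Wnt signalling in the gut and whose loss begins adenoma growth, so the controls carried it too. Colonic adenomas were dissected at 150 to 160 days, 3 for each of 4 genotypes. Tet1 null adenomas were Tet1-/- Tdg+/+ ApcMin/+, Tdg heterozygous adenomas were Tet1+/+ TdgN151A/+ ApcMin/+, double heterozygous adenomas were Tet1+/- TdgN151A/+ ApcMin/+, and control adenomas were Tet1+/+ Tdg+/+ ApcMin/+. Double heterozygous adenoma 3 was a shallow library, with 2349576 reads at listed sites against 8213211 to 18865833 in the other 11, and 99 of the 655 sites had under 20 reads in it. It was left out of the comparisons, so the double heterozygous group has n = 2. The labels do not say that the adenomas of a genotype were taken from different mice, and a p-value therefore speaks only of the variation among the tumours measured. They name no cell type, and an adenoma holds epithelium and other cells.

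Tet1 belongs to the dioxygenases that oxidise the methyl group of methylcytosine stepwise, and Tdg, a DNA glycosylase, cuts out the more oxidised forms, after which base excision repair puts back plain cytosine. N151A changes an asparagine of the catalytic site of Tdg to alanine and impairs the glycosylase. Because both genes lie on the same chromosome, DNA next to a targeted allele is passed on with it, and the interval holds both the targeted alleles and that linked DNA. In the RefSeq order of the GRCm38.p6 assembly, 294 of the 1001 protein-coding genes of chromosome 10 lie between Tet1 and Tdg. No genome of mm9 was at hand, so the sites were not assigned to genes, their distance to Tet1 and Tdg is not given, and the absence of Tet1 was taken from the labels.

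The assay, digital restriction enzyme analysis of methylation, reads the cytosine in the middle of CCCGGG. SmaI first cuts the unmethylated sites and XmaI then cuts the methylated sites that remain, so each end read counts a site as unmethylated or methylated. A site of this kind lies at the start of Tet1. It is printed here from the RefSeq promoter table (GRCm38.p6, minus strand), with the recognition sequence in capitals, to show what the assay cuts next to 1 of the targeted genes.
Tet1: ggtttgtacaatCCCGGGgtctgtattcgc
The first capital lies 25 bases after the start of the gene. The same window of Tdg, 250 bases before to 50 bases after its start, held no CCCGGG, and 4436 of 32851 such mouse windows (13.5%) held at least 1. The site reads the same on both strands. It could not be matched to a listed site, because the list is in mm9.

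Most of the 655 sites were unmethylated in the adenomas. Averaged over the 11 adenomas, 397 sites (60.6%) were below 20% methylation, 140 (21.4%) lay between 20 and 80%, and 118 (18.02%) were above 80%. The same classes held 66.3%, 14.0% and 19.8% of the 602 other sites of chromosome 10 with the same depth, and 61.4%, 19.6% and 18.97% of 23246 sites on the other autosomes. Sites came in runs: 94 had no other listed site within 500 bp, 334 had 1 and 227 had 2 or more, and joining neighbours gave 335 runs. The median depth at the 655 sites was 267 to 626 reads in the 11 adenomas and 73 in the shallow library. Only unmethylated reads were seen at 90 sites and only methylated reads at 1, which left 564 sites with both that could be tested.

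At the borders of the rule, the first site inside lay at 50534336 and the last site outside before it at 49758483, with means of 94.6% and 64.4% in control adenomas. The last site inside lay at 94978312 and the next outside at 95236210, with 0% and 77.4% in control adenomas. By depth, 8 sites just inside had a lowest depth of 20 reads, and 10 sites of the interval just outside had 19.

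In Tet1 null adenomas the mean level over the 655 sites was 28.8%, 31.9% and 30.8%. It was 28.6%, 28.8% and 29.6% in Tdg heterozygous adenomas, 31.0% and 28.9% in the 2 double heterozygous adenomas, and 28.2%, 27.6% and 28.3% in control adenomas. Every mutant adenoma was above every control adenoma, while the mutant genotypes overlapped each other. The Tet1 null mean of 30.5 ± 1.56% (SD, n = 3) was 2.47 percentage points above the control mean of 28.0 ± 0.403% (SD, n = 3). The differences from control were 0.976 points for Tdg heterozygous and 1.93 points for double heterozygous adenomas. Each had an exact two-sided permutation p of 0.1, the smallest that 3 against 3 or 2 against 3 allows, and an adjusted p of 0.2 over 6 comparisons. On the other autosomes Tet1 null adenomas averaged 30.04 ± 1.61% and control adenomas 28.1 ± 0.269% (SD, n = 3 each). The difference of 1.92 points had the same direction as in the interval, but the groups overlapped (exact p = 0.2, adjusted p = 0.4). The lowest Tet1 null adenoma stood at 28.32% there and the highest control adenoma at 28.35%. Tdg heterozygous and double heterozygous adenomas were all above control adenomas there (exact p = 0.1, adjusted p = 0.3 for each).

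The interval was then set against the rest of the same chromosome within each adenoma, which removes a shift that is equal at all sites of the chromosome. It does not remove a shift that depends on level, because 21.4% of the interval sites but 14.0% of the others lay at 20 to 80%. In that class the means on the rest of chromosome 10 were 57.4% in Tet1 null and 50.9% in control adenomas. The excess was not tested at sites matched by level. The interval exceeded the other 602 sites by 2.35, 3.02 and 2.98 points in Tet1 null adenomas, by 1.79, 1.99 and 1.82 points in Tdg heterozygous adenomas, by 2.30 and 2.00 points in double heterozygous adenomas, and by 2.06, 1.53 and 1.65 points in control adenomas. All 3 Tet1 null values were the highest of the 11, and the Tdg heterozygous and double heterozygous values overlapped those of control adenomas. The excess in Tet1 null over control adenomas was 1.03 points (exact two-sided permutation p = 0.1, adjusted p = 0.3), against 0.12 for Tdg heterozygous (exact p = 0.5, adjusted p = 0.5) and 0.4 for double heterozygous adenomas (exact p = 0.3, adjusted p = 0.36). Measured against the other autosomes in place of the rest of chromosome 10, the Tet1 null excess was 0.548 points. On the rest of chromosome 10 the Tet1 null mean was 1.43 points above the control mean, a smaller difference than the 1.92 points on the other autosomes.

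**Figure D1:**
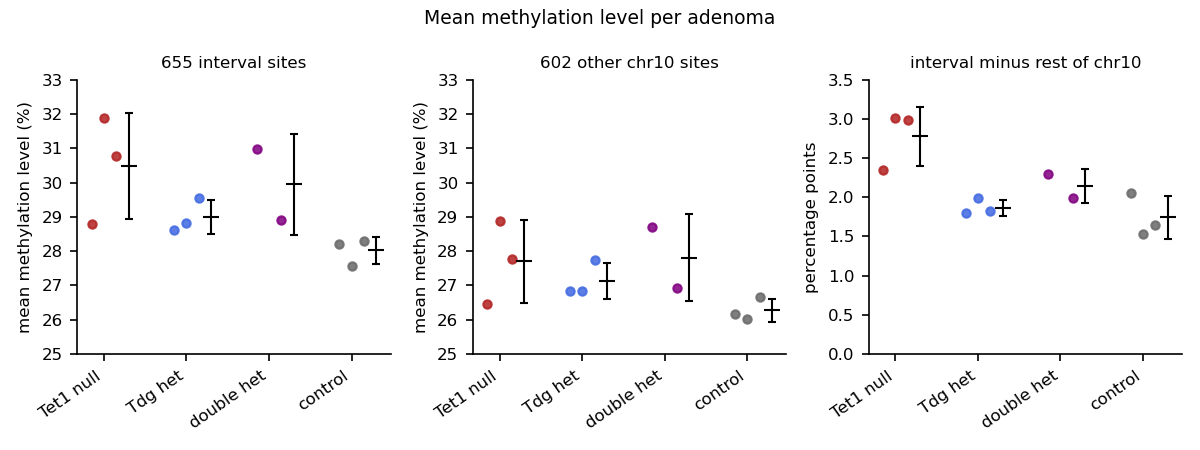
Mean methylation level per adenoma, in percent, over the 655 interval sites (left) and over the 602 other chromosome 10 sites (middle), and their difference in percentage points (right). Each point is 1 adenoma and the bars give mean ± SD; the 3 Tet1 null adenomas are the highest in the right panel, between 2.35 and 3.02 points.

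The shift is next given by class of site. At the 397 sites below 20%, the mean level was 2.45 ± 0.392% in Tet1 null adenomas and 1.39 ± 0.0964% in control adenomas (SD, n = 3 each), and the lowest Tet1 null adenoma (2.02%) was above the highest control adenoma (1.44%). The same separation was seen at sites of this class on the other autosomes (lowest Tet1 null adenoma 1.75%, highest control adenoma 1.43%) and on the rest of chromosome 10 (1.44% and 1.40%). Tdg heterozygous adenomas averaged 1.46 ± 0.208% (SD, n = 3) and double heterozygous adenomas 1.76 ± 0.577% (SD, n = 2) at these sites. At the 140 sites of 20 to 80% the means were 57.99 ± 5.38% in Tet1 null, 54.0 ± 1.58% in Tdg heterozygous, 57.3 ± 5.08% in double heterozygous and 51.0 ± 1.47% in control adenomas. Every mutant adenoma was above every control adenoma in this class. Above 80% the means were 92.2 ± 0.948% in Tet1 null, 92.0 ± 0.477% in Tdg heterozygous, 92.4 ± 0.246% in double heterozygous and 90.3 ± 0.64% in control adenomas. In this class too every mutant adenoma was above every control adenoma, and the mutant means lay close together. Outside the interval, Tet1 null and control adenomas overlapped in both higher classes. At 20 to 80% the lowest Tet1 null adenoma stood at 51.01% on the other autosomes, and the highest control adenoma at 51.29%. On the rest of chromosome 10 these values were 51.62% and 51.99%. Above 80% these values were 90.82% and 91.72% on the other autosomes, and 92.60% and 93.62% on the rest of chromosome 10. Tdg heterozygous and double heterozygous adenomas were all above control adenomas in both classes on the other autosomes. Their lowest values there were 51.93% and 52.92% at 20 to 80%, and 91.97% and 92.19% above 80%. The same held on the rest of chromosome 10, except that Tdg heterozygous adenomas overlapped control adenomas above 80% (lowest 93.32%). These classes were defined on the same 11 adenomas, and no test was made of them.

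Along the interval the Tet1 null level was above control in every one of 9 bins of 5 Mb. The difference of the means ran from 1.28 points at 85 to 90 Mb to 3.35 points at 75 to 80 Mb, and all 3 Tet1 null adenomas were above all 3 control adenomas in 5 of the 9 bins. In Tdg heterozygous adenomas the bins differed from control by -0.34 to 2.31 points, with 2 of 9 bins free of overlap. In double heterozygous adenomas the bins differed by 0.54 to 3.14 points, with 4 of 9 free of overlap. In the bins at 55 to 60 and 60 to 65 Mb every mutant adenoma was above every control adenoma. Whether this is particular to these bins was not tested. The means at 55 to 60 Mb were 30.9 ± 0.88% in Tet1 null, 29.9 ± 0.242% in Tdg heterozygous, 30.4 ± 0.466% in double heterozygous and 27.6 ± 0.867% in control adenomas. At 60 to 65 Mb Tet1 null adenomas exceeded the control mean by 2.88 points, Tdg heterozygous by 1.54 points and double heterozygous adenomas by 3.14 points. No bin of the interval carried the shift alone.

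**Figure D2:**
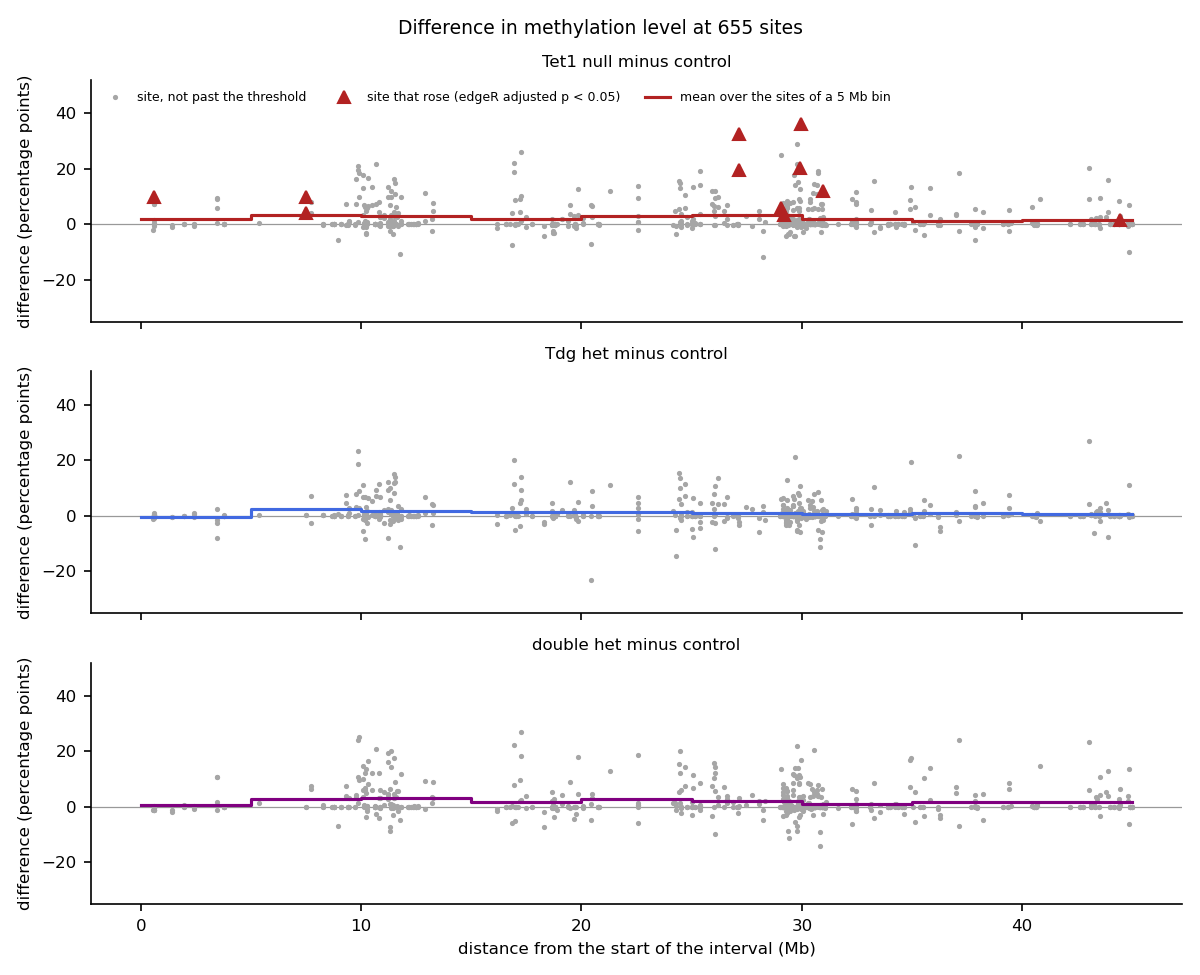
Difference in methylation level from the control mean (percentage points) against distance from the start of the interval (Mb), for Tet1 null, Tdg heterozygous and double heterozygous means. Grey points are sites, triangles are the sites that rose in edgeR's test, and lines are means over 5 Mb bins; 11 triangles stand in the Tet1 null panel and none in the other panels.

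Site by site, 11 of the 564 tested sites rose in Tet1 null against control adenomas and 0 fell, beside 0.0143% of all tested sites that fell (edgeR's quasi-likelihood test, Benjamini-Hochberg adjusted p under 0.05 over 21016 autosomal sites). That is 1.95% of the tested interval sites, beside 1.47% of all tested autosomal sites that rose in the same comparison, 0.607% (3 of 494) on the rest of chromosome 10 and 1.47% (294 of 19958) on the other autosomes. The interval's share was thus near the share over the genome. Whether or not a site passed the test, 67 of the 564 sites (11.9%) had all 3 Tet1 null adenomas above all 3 control adenomas, against 10.3% of all tested autosomal sites. The median difference over the 655 sites was 0.06 percentage points in Tet1 null against control adenomas and 0.05 over all autosomal sites of the same depth. A difference of 10 points or more upward was seen at 56 sites (8.55%) and downward at 2 (0.305%), beside 7.45% upward and 0.535% downward over all autosomal sites of the same depth.

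The 11 rises lay in 9 runs, and 7 of the 11 stood between 77 and 82 Mb, where 169 of the 655 sites lie, a clustering that was not tested. The median level at the 11 sites was 10.6% in Tet1 null adenomas, 1.69% in Tdg heterozygous, 2.24% in double heterozygous and 0.93% in control adenomas. The rise was 1.52 to 36.02 points, with a median of 9.84 points, and 7 of the 11 were below 5% in control adenomas. The share of all tested sites below 5% was not counted. Of the 655 sites, 60.6% were below 20% averaged over the 11 adenomas, so a low start is not read as a trait of the rises. In 10 of the 11 the Tet1 null and control values did not overlap. The 10 largest rises are given next.

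The clearest were a pair 262 bp apart that control adenomas left almost free of methylation. At chromosome 10 position 57514544 the level was 17.1%, 8.72% and 3.9% in Tet1 null adenomas, 0.19%, 0% and 0.21% in Tdg heterozygous, 0.1% and 0.09% in double heterozygous, and 0%, 0.1% and 0.13% in control adenomas. At 57514806 it was 6.79%, 3.92% and 1.83% in Tet1 null adenomas, 0.09%, 0% and 0.1% in Tdg heterozygous adenomas, and 0% in both double heterozygous and all 3 control adenomas. Every Tet1 null adenoma was above all the others at both sites, with a Tet1 null mean of 9.89 ± 6.65% at the first and 4.18 ± 2.49% at the second (SD, n = 3). edgeR's adjusted p against control was 6.73e-11 and 8.87e-09, and the pair was also higher than in Tdg heterozygous (2.78e-10 and 2.93e-07) and double heterozygous adenomas (9.28e-08 and 2.59e-06). These sites were covered by 541 to 1142 reads per adenoma.

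A site at 50620015 was alike in level but not in spread. It stood at 18.6%, 11.2% and 1.92% in Tet1 null adenomas, 1.33%, 1.92% and 0.83% in Tdg heterozygous, 0.41% and 1.22% in double heterozygous, and 1.18%, 0.54% and 0.48% in control adenomas. The third Tet1 null adenoma equalled the highest Tdg heterozygous one, and all 3 were above the control adenomas (edgeR adjusted p = 1.36e-04).

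A second pair, 190 bp apart, began from about 7 to 10% and gained 19.5 to 32.6 points. At 77127124 the level was 25.9%, 47.6% and 53.5% in Tet1 null adenomas, 4.64%, 5.73% and 9.25% in Tdg heterozygous, 18.2% and 8.1% in double heterozygous, and 12.8%, 7.99% and 8.46% in control adenomas (edgeR adjusted p against control = 0.00206). At 77127314 it was 20.9%, 27.1% and 31.7% in Tet1 null adenomas, 2.57%, 3.43% and 8.04% in Tdg heterozygous, 9.12% and 5.88% in double heterozygous, and 7.76%, 6.52% and 6.94% in control adenomas (edgeR adjusted p = 0.0266). The Tet1 null adenomas stood above the other 8 at both sites.

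Between 79 and 81 Mb a further 5 sites rose. The largest of the 11 rises, 36.02 points, was at 79963224, where the level was 87.7%, 63.0% and 76.2% in Tet1 null adenomas, 30.6%, 58.9% and 37.7% in Tdg heterozygous, 48.2% and 64.9% in double heterozygous, and 37.3%, 28.8% and 52.7% in control adenomas (edgeR adjusted p = 0.0163). Its double heterozygous values reached into the Tet1 null range. At 79934627 the level was 31.1%, 19.6% and 41.0% in Tet1 null adenomas and 25.9%, 3.09% and 2.18% in control adenomas (edgeR adjusted p = 0.00449), the only 1 of the 11 rises where these groups overlapped. Control adenoma 1 was the high one there, and the Tdg heterozygous and double heterozygous adenomas all lay between 4.01% and 9.86%.

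The other 3 stayed low even after the rise. At 80944828 the level was 16.6%, 16.3% and 10.1% in Tet1 null adenomas and 0.84%, 3.23% and 2.82% in control adenomas (edgeR adjusted p = 0.00119). At 79075007 it was 7.14%, 6.23% and 6.57% in Tet1 null adenomas and 1.39%, 0.95% and 0.45% in control adenomas (edgeR adjusted p = 0.0188). At 79180492 it was 3.11%, 5.19% and 3.28% in Tet1 null adenomas and 0.42%, 0.54% and 0.42% in control adenomas, with 3.17% and 1.31% in double heterozygous adenomas (edgeR adjusted p = 0.0314). Of the 10 named sites, 57514544 kept an adjusted p under 0.05 in every alternative run for this comparison, and the others lost it in at least 1.

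**Figure D3:**
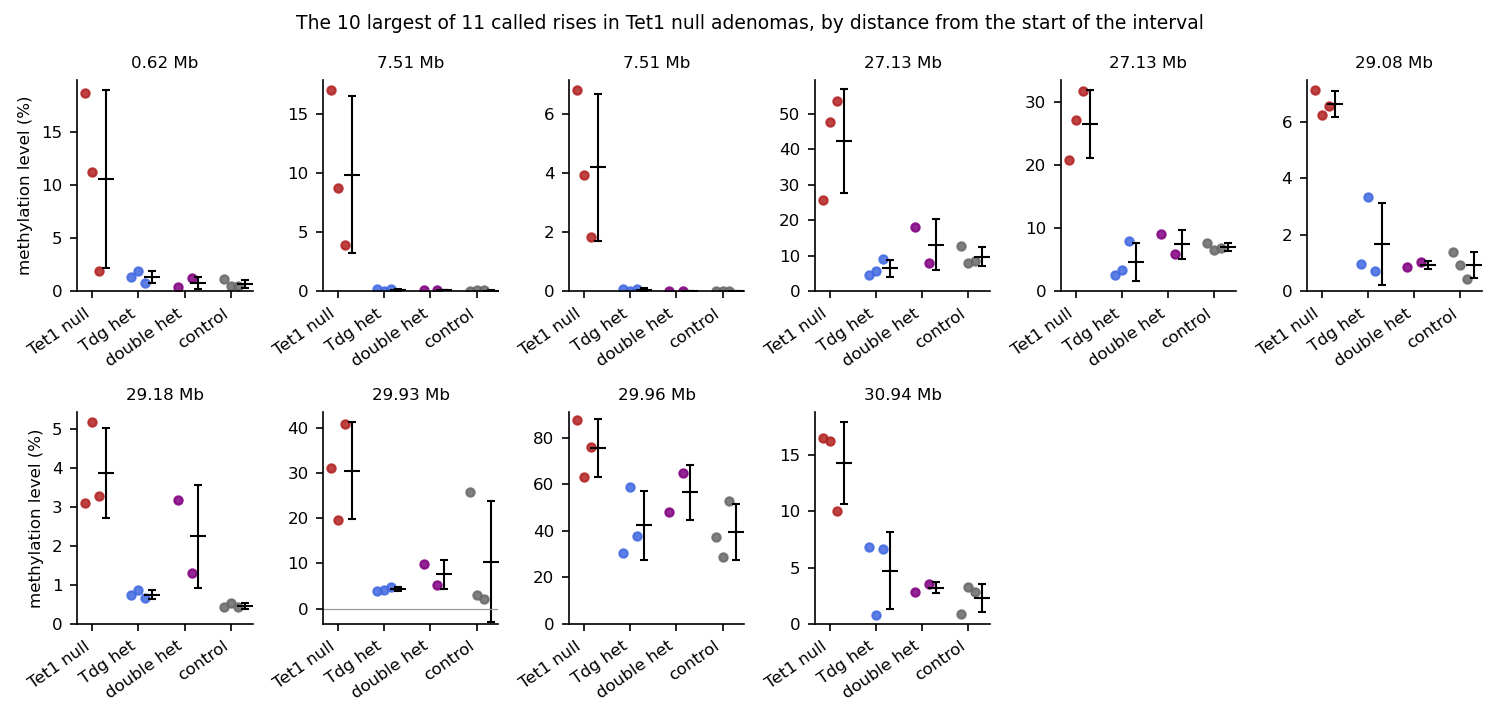
Methylation level in percent at the 10 sites with the largest rise among the 11 that passed edgeR's test, 1 panel a site, headed by distance from the start of the interval (Mb). Points are adenomas and bars mean ± SD; the Tet1 null adenomas are above every control adenoma in all panels but the 1 at 29.93 Mb, where control adenoma 1 stands at 25.9%.

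With Tdg N151A alone, no tested site of the interval passed the threshold. In Tdg heterozygous against control adenomas 0 of 564 sites passed edgeR's threshold, beside 0.0238% of all tested autosomal sites, and both limma fits made 0 calls as well. An unadjusted p under 0.05 was found at 18 interval sites, 3.19% beside 3.53% on the other autosomes. In double heterozygous against control adenomas 0 of 564 passed in edgeR, beside 0.00476% of all tested sites, and limma called 0. An unadjusted p under 0.05 was found at 29 sites, 5.14% beside 4.45% on the rest of chromosome 10 and 4.23% on the other autosomes. All 3 adenomas of a group lay above all control adenomas at 31 sites (5.5%) in Tdg heterozygous adenomas, where the share over the genome was 5.9%. With 2 double heterozygous adenomas such a separation is easier to reach, and it was seen at 75 sites (13.3%) beside 12.5% over the genome.

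In each of these comparisons, the 3 sites with the smallest unadjusted p in each direction are given as values, and none passed the adjusted threshold. For Tdg heterozygous adenomas the smallest was at 79668130, where they stood at 94.6%, 89.9% and 93.2% and control adenomas at 63.1%, 64.9% and 86.5% (edgeR adjusted p = 0.853). Next was 59874106, with 93.3%, 86.0% and 82.8% in Tdg heterozygous adenomas, 89.8% and 86.9% in double heterozygous adenomas, and 73.6%, 63.3% and 55.4% in control adenomas (edgeR adjusted p = 0.853 and 0.872). Tet1 null adenomas stood at 87.3%, 84.8% and 83.3% there, so the 3 control adenomas were below the other 8.

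The third higher site, 90660703, was almost fully methylated throughout, at 100% in all 3 Tdg heterozygous adenomas and 99.6% on average in control adenomas (edgeR adjusted p = 0.968). In the other direction, at 70441372 Tdg heterozygous adenomas had 43.0%, 29.1% and 71.4% and control adenomas 76.0%, 60.2% and 77.4% (edgeR adjusted p = 0.968), and the groups overlapped. The other lower sites, 83903296 and 84648084, were at 0% in all 3 Tdg heterozygous adenomas and averaged 0.163% and 0.07% in control adenomas (edgeR adjusted p = 0.968 at both).

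For double heterozygous adenomas 59874106 came first. At 76066459 they stood at 92.5% and 95.8%, and control adenomas at 93.4%, 68.7% and 77.6%, with control adenoma 1 inside the double heterozygous range (edgeR adjusted p = 0.872). At 67237065 the 2 double heterozygous adenomas stood at 78.3% and 73.9%, and control adenomas at 45.8%, 49.6% and 51.5%, with no overlap (edgeR adjusted p = 0.872). The 3 lower sites were nearly free of methylation: the double heterozygous and control means were 0% and 0.2% at 68814732, 0.23% and 1.26% at 50615132, and 0% and 0.193% at 60149495 (edgeR adjusted p = 0.872 at each). Control adenomas themselves differed most at 3 sites: at 79668750 they stood at 78.2%, 54.4% and 100%, at 93022382 at 82.5%, 37.5% and 34.7%, and at 87109285 at 24.6%, 67.1% and 66.0%.

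Set against the other mutants, Tet1 null adenomas were higher at 10 of 564 sites than Tdg heterozygous adenomas and lower at 0 (1.77% higher, beside 1.6% higher and 0.00476% lower among all tested sites in edgeR's test). They were higher at 3 sites than double heterozygous adenomas and lower at 0 (beside 0.504% higher and 0.00476% lower among all tested sites). Those 3 were 50620015 and the pair at 57514544 and 57514806. Double heterozygous against Tdg heterozygous adenomas gave 0 calls in edgeR (0.0% over the genome) and 0 in limma, with 12 sites at an unadjusted p under 0.05 (2.13%, beside 3.10% on the other autosomes). Comparisons that use the same Tet1 null adenomas share their values and are not separate evidence.

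Read depth was used to ask whether DNA of the interval differed between genotypes, since a gained or lost CCCGGG site, or a change of copy number, alters how many reads a site gives. Over the whole interval no difference in its share of chromosome 10 reads was detected. A single site would hardly move this share, and the exact tests of it cannot go below p = 0.1. The interval held 52.3%, 51.0% and 51.4% of all chromosome 10 reads in Tet1 null adenomas, 52.2%, 51.7% and 51.6% in Tdg heterozygous, 51.2% and 52.1% in double heterozygous, and 51.8%, 51.7% and 51.5% in control adenomas. The Tet1 null minus control difference was -0.0858 points (exact permutation p = 0.9), the Tdg heterozygous minus control difference 0.175 points (exact p = 0.5), and the double heterozygous minus control difference 0.00636 points (exact p = 1), all with an adjusted p of 1. Of 762 sites of the interval with 20 or more reads in every control adenoma, 0 were down to 2 reads or fewer in all 3 Tet1 null adenomas, and each had at least 17 reads in 1 of them. No such count is given for the heterozygous genotypes, where the other copy of a site would still be read.

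Single sites did differ. Total reads at 32151 autosomal sites with a mean of 20 reads were tested, 846 of them in the interval (all 655 sites above and 191 shallower ones). In the whole autosomal genome, 1 site differed in Tdg heterozygous against control adenomas and 1 in double heterozygous against control adenomas (0.00311% of the tested sites each), and it was the same site, at 93725835 in the interval. It is not among the 655, because it was hardly read in adenomas without the Tdg mutation, and it reached the mean of 20 reads only through adenomas with it. It had 116, 106 and 91 reads in Tdg heterozygous adenomas and 107 and 86 in double heterozygous adenomas, against 8, 2 and 3 in Tet1 null and 2, 4 and 6 in control adenomas. Every adenoma with TdgN151A was far above every adenoma without it. Scaled to counts per 1000000 autosomal reads (CPM), this was 6.02 ± 0.345 in Tdg heterozygous (SD, n = 3), 5.61 ± 0.994 in double heterozygous (SD, n = 2), 0.321 ± 0.191 in Tet1 null and 0.282 ± 0.184 in control adenomas (SD, n = 3 each). The log2 fold change was 4.45 for Tdg heterozygous against control (edgeR adjusted p = 2.84e-04) and 4.35 for double heterozygous against control (edgeR adjusted p = 8.02e-04), and Tet1 null against control gave 0.19 (edgeR adjusted p = 1).

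The reads gained at this site were nearly all of the methylated kind. The level was 94.1%, 95.2% and 95.4% in Tdg heterozygous adenomas and 91.0% and 89.8% in double heterozygous adenomas, while the few reads in Tet1 null and control adenomas were all methylated. The nearest listed site is 7736 bp away.

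After this site had been seen, the 5 adenomas that carry TdgN151A (Tdg heterozygous and double heterozygous) were compared with the 6 that do not (Tet1 null and control). In this comparison 4 of the 32151 sites differed in depth (0.0124%), and all 4 lay in the interval, within 429 kb between 93297123 and 93725835. None of the 798 tested sites on the rest of chromosome 10 and none of the 30507 on the other autosomes passed. One of the 4 is 93725835 itself, which prompted the comparison, and its value there (4.31 higher in carriers on the log2 scale) is a description. The other 3 sites were lower in carriers and belong to the 655.

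At 93297123 the CPM was 2.69, 2.52 and 2.84 in Tdg heterozygous and 2.00 and 3.08 in double heterozygous adenomas, against 5.95, 6.66 and 8.43 in Tet1 null and 5.68, 7.36 and 7.17 in control adenomas. The carriers' mean was 0.382 times that of non-carriers (log2 fold change -1.39, edgeR adjusted p = 0.029), and the groups did not overlap. Its neighbours at 205 and 530 bp, 93296918 and 93296593, were read alike in both, with log2 fold changes of -0.09 and 0.02. All reads at 93297123 were unmethylated in every adenoma.

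At 93369788 the CPM was 24.4, 25.5 and 27.2 in Tdg heterozygous and 31.6 and 20.8 in double heterozygous adenomas, against 49.9, 49.3 and 45.0 in Tet1 null and 50.9, 47.7 and 42.0 in control adenomas. The carriers' mean was 0.545 times that of non-carriers at this site (log2 fold change -0.88) and 0.54 times at 93370192, 404 bp away (log2 fold change -0.89), with an edgeR adjusted p of 0.016 at both. The least non-carrier (CPM of 42.0) was above the highest carrier (31.6) at both sites. Their methylation was unlike each other but alike between genotypes: 93369788 was methylated at 93.2 to 96.4% in carriers and 89.0 to 97.3% in non-carriers, and 93370192 at 21.4 to 27.7% in carriers and 18.8 to 31.0% in non-carriers. edgeR's adjusted p for methylation between carriers and non-carriers was 1 at both.

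The calls of the 3 decreases depended on single adenomas. Leaving out Tet1 null adenoma 2, any 1 of the Tdg heterozygous adenomas, double heterozygous adenoma 2 or control adenoma 2 left 93725835 as the 1 call. The direction and size held in each of these (log2 fold changes from -1.24 to -1.57 at 93297123 and from -0.75 to -1.03 at 93369788, over all adenomas left out in turn). At 93725835 the log2 fold change stayed between 4.05 and 4.61.

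**Figure D4:**
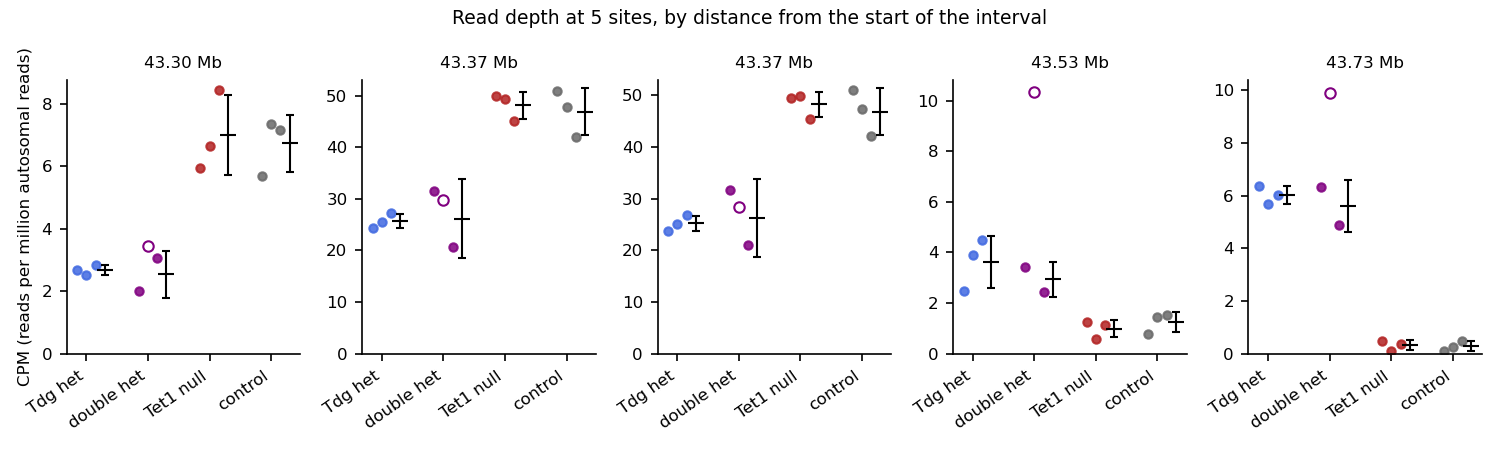
CPM at 5 sites, headed by distance from the start of the interval (Mb), for Tdg heterozygous, double heterozygous, Tet1 null and control adenomas. Filled points are adenomas in the comparisons with mean ± SD and open points the left-out double heterozygous adenoma 3; carriers of TdgN151A are below non-carriers in the first 3 panels and above them in the last 2.

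The site 93532780, in the same stretch, did not pass. It had 45, 73 and 68 reads in Tdg heterozygous and 58 and 43 in double heterozygous adenomas, against 21, 11 and 9 in Tet1 null and 13, 24 and 19 in control adenomas (log2 fold change 1.56, edgeR adjusted p = 0.11), with no overlap of carriers and non-carriers. Of the 36 listed sites of the stretch, 10 were deep enough to test. An unadjusted p under 0.001 was found at 5 of them, with 3 lower and 2 higher in carriers. The 2 higher sites, 93532780 and 93725835, reached the mean of 20 reads only through carriers. The ends of the stretch were set by its called sites, so no test of the stretch was made.

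Outside it, the interval held 2 more sites with an unadjusted p under 0.001, both lower in carriers and neither past the adjusted threshold. At 82322220 the log2 fold change was -0.98 (edgeR adjusted p = 0.954) and at 82369040, which is not among the 655, it was -1.12 (edgeR adjusted p = 0.626). In all, 7 of the 846 sites of the interval had such a p, against 1 of 798 on the rest of chromosome 10 and 7 of 30507 on the other autosomes. The 7 include 93725835, which prompted the comparison, and 93532780. They also include 93369788 and 93370192, which are 404 bp apart and were read to nearly the same depth. These counts are therefore a description, and their concentration in the interval was not tested. Carriers lay wholly below non-carriers at 6 of the 846 sites (0.709%), beside 0.0809% of all tested sites, and wholly above at 2 (0.236%), beside 0.0591%. The 2 wholly above were 93725835 and 93532780, with 25 and 97 reads over all non-carriers together. Both met the depth minimum only through the carriers in which they were high, so no excess of such sites is concluded. The 1 site on the rest of chromosome 10 with an unadjusted p under 0.001 was 107769801 (log2 fold change -1.02, edgeR adjusted p = 0.213).

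**Figure D5:**
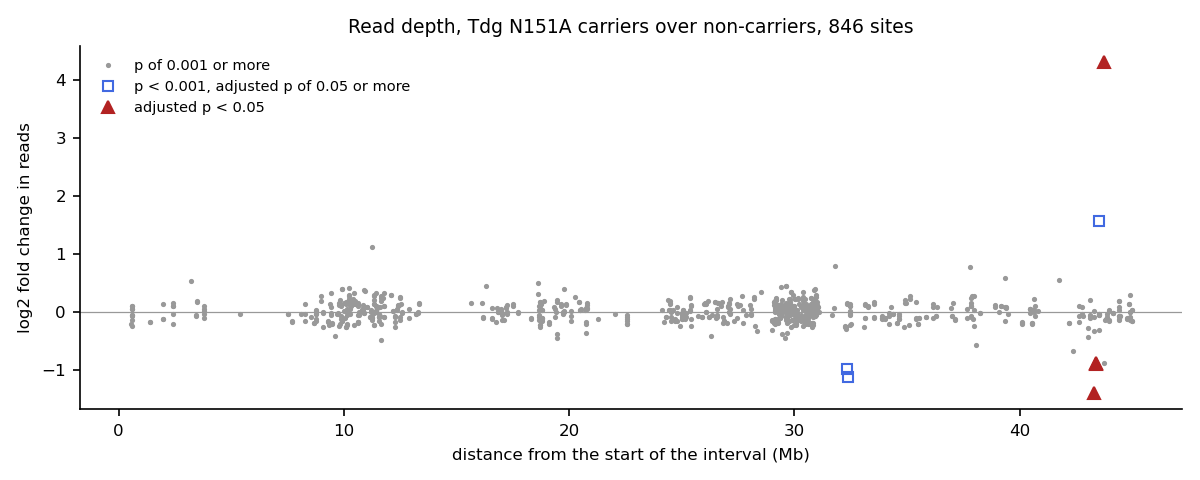
Log2 fold change in read depth, carriers of TdgN151A over non-carriers, at 846 sites against distance from the start of the interval (Mb). Triangles mark the 4 sites with an edgeR adjusted p under 0.05, of which 2 overlap at -0.88 and -0.89, and squares those with an unadjusted p under 0.001 only; the triangles lie at 43 to 44 Mb, and the squares lie there and near 32 Mb.

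Tet1 null adenomas gave no such site. Against control adenomas 0 of 846 sites of the interval differed in depth (0.0% of all tested sites), and DESeq2 made 0 calls. An unadjusted p under 0.05 was found at 17 sites in edgeR, 2.01% beside 1.75% on the rest of chromosome 10 and 1.49% on the other autosomes. Methylation between carriers and non-carriers differed at 0 of 564 sites in edgeR (0.162% over the genome), where 22 had an unadjusted p under 0.05 (3.90%, beside 4.20% on the other autosomes), and at 2 in limma on ratios of counts. At 93725835, Tet1 null against Tdg heterozygous adenomas gave a log2 fold change in depth of -4.26 (edgeR adjusted p = 5.14e-04) and against double heterozygous adenomas -4.16 (edgeR adjusted p = 0.00146). These comparisons use the same carrier reads as those against control adenomas, and the site met the depth minimum only through carriers. They are not separate evidence. In this design the TdgN151A allele and DNA linked to it cannot be told apart.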

How the data were processed

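Genomic DNA with added methylation standards was cut with SmaI and then XmaI and sequenced, per the labels' protocols. The submitters' processing notes name Trim Galore, Bowtie2 and the build mm9, without versions. The file headers name mm9 too, but the protocol text of the labels has a rat build. Per the file headers, each site has deposited counts of reads with the methylated and with the unmethylated signature. Levels are the deposited percent values that the authors adjusted with the added standards. The labels state a minimum of 100 reads, and the deposited tables list shallower sites too.

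Groups follow the genotype label. The interval, the members and the tests were chosen with earlier results of these data known. Sites with at least 20 reads in 11 adenomas were kept. Methylated and unmethylated counts of 21016 autosomal sites were tested in 1 fit with edgeR 4.0.16 in R 4.3.3 (quasi-likelihood test, 1 depth coefficient per adenoma, equal library sizes, dispersion without a trend, common dispersion 0.112). Total counts of 32151 sites with a mean of 20 reads were tested with edgeR after TMM normalization. Both tests were two-sided, with p-values adjusted over all sites by Benjamini-Hochberg and a threshold of 0.05. For 1 value per adenoma, an exact permutation test was used. The comparison of carriers of TdgN151A with non-carriers, with equal weight for each genotype, was added after the data were seen.

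The text names, for each mutant genotype against control, at most 10 rises and 10 falls past the threshold, and otherwise 3 sites a direction by lowest p, with the 3 sites of widest range in control adenomas. For the other comparisons up to 3 in each direction were named, and for depth up to 5. Depth sites with an unadjusted p under 0.001 were named after their values were seen. Alternatives were other depth minimums, limma 3.58.1 on ratios of counts and on the adjusted level, DESeq2 1.42.0, fits of the compared genotypes alone, replicate number as a block, sex as a covariate, sums over runs of sites and leaving out each adenoma. Sex was inferred, as male where over 100 reads lay on chromosome Y, and was uneven between genotypes. Tet1 null adenomas 1 and 2, Tdg heterozygous adenoma 2, all double heterozygous adenomas and control adenoma 1 were male, and the others female. The edgeR tests of methylation and of depth were checked on simulated counts, and the outcome is not given here. Reads are not marked with molecular identifiers in the labels, so counting errors are lower limits. Adenomas of a genotype differed in level at 25.0 to 44.8% of the sites compared (chi-square p under 0.05), so none looked like 1 library deposited more than once.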

Additional observations from a re-analysis of the deposited data

Results flagged for a closer look

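Double heterozygous adenoma 3, the shallow library left out of every comparison, carries the TdgN151A allele by label and had 23 reads at chromosome 10 position 93725835. That is a CPM (counts per 1000000 autosomal reads) of 9.90 (exact 95% Poisson interval 6.27 to 14.9, counting error only), against 0.122, 0.241 and 0.483 in the control adenomas. It was singled out because a signal above every control adenoma appeared in a library that the comparisons did not use. At 93297123 it had a CPM of 3.44 (1.49 to 6.78), against 5.68, 7.36 and 7.17 in the control adenomas. At 93369788 it had 29.7 (23.1 to 37.6), below the control adenomas at 50.9, 47.7 and 42.0. At 93532780 it had 10.3 (6.62 to 15.4), against 0.794, 1.45 and 1.53 in the control adenomas. Its values at these 4 sites thus lay on the same side of the control adenomas as those of the other carriers, and at 93297123 its interval reaches the control range. At 93725835 and 93532780 it stood above the other carriers, which had 4.90 to 6.37 and 2.45 to 4.49. At 82369040 it had 6 reads, a CPM of 2.58 (0.948 to 5.62). That is above the other carriers (0.707 to 1.13) and inside the range of the control adenomas (1.77, 1.69 and 2.66). At 82322220 it had 2 reads, a CPM of 0.861, below the control adenomas.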

How the results depend on the processing

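Of 411 recomputed counts and differences, 358 kept to within 1.5 times the count or 1 SD of the difference, 53 moved further and 0 called values changed sign. Small differences that passed no test did change sign. The interval excess of Tdg heterozygous over control adenomas went from 0.12 to -0.176 points at 100 reads. The Tet1 null minus control share of reads went from -0.0858 to 0.192 points without Tet1 null adenoma 2. Methylation, Tet1 null against control (11): 4 with limma on the adjusted level, 6 over runs of sites, and 4 to 13 with 1 adenoma left out, with 4 and 7 without Tet1 null adenomas 3 and 2 and 7, 5 and 6 without control adenomas 1, 2 and 3. Against Tdg heterozygous (10): 3 with limma on the adjusted level, 6 over runs, and 5 to 13 with 1 left out, with 6 without Tet1 null adenoma 2 or 3 and 5 without Tdg heterozygous adenoma 1. Against double heterozygous (3): 7 with all 12 adenomas, 5 at 100 reads, 1 with limma on the adjusted level and 2 to 3 with 1 left out. Carriers against non-carriers (0) gave 2 with limma on ratios of counts.

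Depth, Tet1 null against control (0): 4 with no filter and 0 to 2 with 1 adenoma left out (2 without control adenoma 1). Tdg heterozygous against control (1): 4 with DESeq2, 8 with no filter, 4 in the compared genotypes alone, 3 with sex as a covariate, and 1 to 3 with 1 left out (3 without control adenoma 1). Double heterozygous against control (1): 4 with DESeq2, 6 with no filter, 3 alone, and 1 to 4 with 1 left out (4 without control adenoma 1). Tet1 null against Tdg heterozygous (1): 5 with DESeq2, 4 at a mean of 5 reads, 5 with no filter and 2 with sex. Tet1 null against double heterozygous (1): 4 with DESeq2 and 2 with no filter. Carriers against non-carriers (4): 1 to 5 with 1 left out.

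The interval minus the rest of chromosome 10, against other autosomes instead, was 0.548 points for Tet1 null minus control, 0.264 minus Tdg heterozygous, 0.233 minus double heterozygous and 0.0313 for double heterozygous minus Tdg heterozygous. At 100 reads it was -0.176 for Tdg heterozygous minus control and 1.24 for Tet1 null minus Tdg heterozygous. With medians it was 0.00667 for double heterozygous minus control, 0.998 for Tet1 null minus double heterozygous and 0.0267 for double heterozygous minus Tdg heterozygous. The causes were not tested.

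Replicate numbers did not pair the adenomas: deviations of same-numbered adenomas correlated at -0.42 to 0.29. With the number as a block, methylation in Tet1 null against control gave 6, and depth gave 2 for Tet1 null against control, 8 for Tdg heterozygous against control, 5 for Tet1 null against Tdg heterozygous and 3 for Tet1 null against double heterozygous. Depth limited double heterozygous adenoma 3, where 99 of the 655 sites had under 20 reads.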
